A study of Rattus norvegicus with 30 samples.

Results

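Hepcidin, the peptide hormone encoded by Hamp, and 9 further genes of iron handling were examined on 30 rat arrays. The 10 genes were Hamp, Hfe, Tfr2, Id1, Tfrc, Tf, Slc40a1, Slc11a2, Fth1 and Ftl1. They were chosen by gene symbol, as a set proposed after earlier results on these same arrays had been seen, so the levels and changes given for them are a description. No p-value is given for any of the 10. All 10 symbols were found in the platform annotation, on 15 of the 31042 probe sets that were not controls. In all, 14217 genes were named by a probe set of their own.

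Chlorpromazine is a phenothiazine antipsychotic known for cholestatic liver injury. The cells were primary hepatocytes of male Sprague Dawley rats, bought frozen, thawed, plated on collagen under Matrigel and dosed on day 3 of culture. The 6 groups were vehicle (1% DMSO), 0.8 µM and 20 µM chlorpromazine, each harvested 48 h and 24 h after dosing, with 5 separately treated wells per group and 1 array per well. The titles give 1% DMSO for the vehicle arrays and only the dose for the chlorpromazine arrays. The number of rats behind the cells is not given in the sources used here. The p-values below therefore measure the spread between wells.

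Hepcidin is secreted by hepatocytes and binds ferroportin, the iron exporter encoded by Slc40a1, which is then degraded, so that less iron enters the plasma. In hepatocytes its gene is driven by bone morphogenetic protein (BMP) signalling through SMAD proteins, with HFE and transferrin receptor 2 as sensors of transferrin-bound iron, and by interleukin-6 through STAT3. Inside the cell, iron regulatory proteins bind RNA hairpins: when iron is scarce they stabilise the transferrin receptor message (Tfrc) and block the translation of ferritin.

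Values are log2 of the authors' array signal after a floor of 16. A gene was called in a comparison where its adjusted p in the limma fit over all 11503 genes tested was under 0.05. For the 10 genes a call describes these arrays and is not a test, since they were chosen with results known. That a call held in other settings or leave-outs shows only how far it rests on the processing or on single arrays. All 15 probe sets of the 10 genes passed the filter on dim probe sets, on 30 of 30 arrays each. Of the 10 genes, 7 had 11 probe sets of their own and entered the counts. Fth1, Ftl1 and Tf were represented only by probe sets that the annotation assigns to several genes (4 probe sets), and their values are those of the shared probe sets. Levels of different probe sets are not comparable with each other.

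Median array signals ran from 380 to 449, and the mean correlation of an array with the others of its group ran from 0.950 to 0.963. Of the 6 hepatocyte messages tested, Alb, Apoa1, Ttr and Serpina1 averaged between 16.1 and 16.7 in every group. The others were less even: Tat changed by -0.43 at 20 µM against vehicle at 48 h. Hnf4a averaged 13.48 in vehicle at 24 h and 13.09 in vehicle at 48 h. For vehicle 24 h replicate 2 the title reads 2 h but the time label reads 24 h, which set its group. Array numbers ran through the 6 groups in the same order in each of 5 sets, so an array's place within its set and its group cannot be told apart. Fewer cells of a type and less RNA per cell cannot be told apart in these bulk samples.

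At 24 h, 2 arrays stood apart from their groups: vehicle replicate 5 and 0.8 µM replicate 1. On the second principal component of all kept genes, which separated the times, they lay at -1.24 and -0.29, against 8.35 to 15.4 on the 15 arrays at 48 h and -19.1 to -8.79 on the other 13 arrays at 24 h. Their Hamp was below and their Tfrc and Hfe were above every other array of the group. The 0.8 µM array was also below its group on every Slc40a1 probe set (14.08 against 14.26 to 14.41 on the brightest) and on the dimmer Slc11a2 set. Vehicle replicate 5 lay within its group on Slc40a1 and barely above it on that Slc11a2 set. Both arrays were picked with their Hamp values seen, so their low Hamp is not a separate result. Neither was flagged for Hamp by Dixon's criterion, which is described below. Hamp values without these arrays show only how far a result rests on them. The main results that rest on them are given with and without them.

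The upstream sequences of Hamp and Tfrc are shown because these genes lay on opposite sides of vehicle at 48 h and moved in opposite directions on the arrays that stood apart. Both are the 250 bases before the annotated start in RefSeq (GRCr8), read 5′ to 3′ on the gene's own strand, which is the minus strand for both. Hamp lies at chr1:95300272-95300521 upstream of a gene at chr1:95298332-95300271, and Tfrc at chr11:81690319-81690568 upstream of a gene at chr11:81668478-81690318. Capitals mark matches, on either strand, to the letters of a BMP response element (GGCGCC) or of a STAT element (TTCNNNGAA).
Hamp: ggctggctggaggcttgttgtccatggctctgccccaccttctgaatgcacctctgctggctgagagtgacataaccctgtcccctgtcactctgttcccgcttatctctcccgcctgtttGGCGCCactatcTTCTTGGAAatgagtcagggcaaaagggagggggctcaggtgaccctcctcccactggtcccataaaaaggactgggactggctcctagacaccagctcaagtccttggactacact
Tfrc: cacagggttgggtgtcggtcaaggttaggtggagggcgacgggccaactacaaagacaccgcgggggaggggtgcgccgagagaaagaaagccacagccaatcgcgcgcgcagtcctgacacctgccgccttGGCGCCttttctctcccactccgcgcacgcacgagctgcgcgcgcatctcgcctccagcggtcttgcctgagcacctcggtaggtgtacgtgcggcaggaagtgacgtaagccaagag

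The Hamp window held 1 GGCGCC, starting 129 bases before the gene start, and 1 TTCNNNGAA, starting 117 bases before it, with no overlap between them. The Tfrc window held 1 GGCGCC, 118 bases before the start. Neither held the E-box letters CACGTG or the C/EBP letters TTGCNNAA. Of 33360 distinct windows of the same length in the table, 8.72% held GGCGCC, 7.68% TTCNNNGAA, 5.61% CACGTG and 9.2% TTGCNNAA. Among the 7 of the 10 genes with a promoter entry, the only other match was TTGCNNAA before Tf, and Slc11a2 had 2 entries without a match. These are matches of letters in a short window, not sites.

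Hamp was higher at 20 µM than in vehicle at 48 h, and the groups overlapped at 24 h. Its level was lower at 48 h than at 24 h in vehicle and 0.8 µM wells, while the wells of both times overlapped at 20 µM. At 48 h, vehicle wells had 11.88, 11.39, 11.78, 11.73 and 11.77. Wells at 0.8 µM had 11.82, 12.12, 12.08, 11.53 and 11.83. Wells at 20 µM had 13.41, 13.70, 13.68, 13.26 and 14.07. The vehicle and 0.8 µM wells overlapped, and every 20 µM well lay above all of them by more than a full log2 unit. In signal units the 20 µM wells ran from 9784 to 17245, against 2675 to 3765 in vehicle wells.

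At 24 h, vehicle wells had 13.10, 13.55, 13.79, 13.54 and 12.01. Wells at 0.8 µM had 12.22, 13.86, 13.77, 13.59 and 13.36. Wells at 20 µM had 13.48, 13.78, 13.65, 13.86 and 13.75. All 3 groups overlapped, and the values of 12.01 and 12.22 came from the arrays that stood apart.

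**Figure D1:**
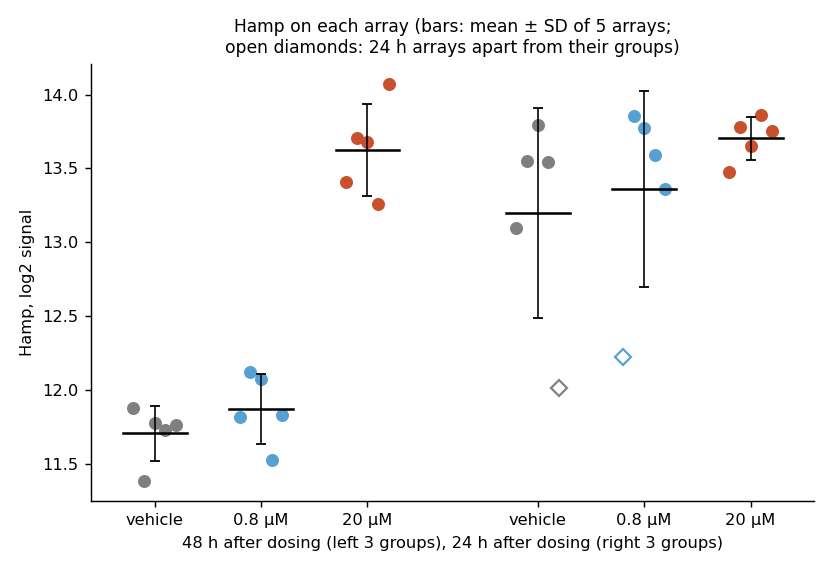
Hamp log2 signal (vertical axis) on each of the 30 arrays by dose, with the 48 h groups on the left and the 24 h groups on the right. Points are wells, bars the mean ± SD of 5 wells, and open diamonds the 2 arrays at 24 h that stood apart. The 5 wells at 20 µM and 48 h sit between 13.26 and 14.07, above all 10 other wells at 48 h.

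In order of mean level, Hamp was highest at 20 µM and 24 h (13.70 ± 0.15, SD, n = 5 here and below), then at 20 µM and 48 h (13.62 ± 0.31), 0.8 µM and 24 h (13.36 ± 0.66) and vehicle at 24 h (13.20 ± 0.71). It was lower at 0.8 µM and 48 h (11.87 ± 0.24) and in vehicle at 48 h (11.71 ± 0.19). Each group's wells overlapped those of the next group in this order. Between vehicle at 24 h and 0.8 µM at 48 h the means lay 1.32 apart, and the overlap came from vehicle 24 h replicate 5 alone. Without the arrays that stood apart, the 24 h means were 13.49 ± 0.29 for vehicle and 13.64 ± 0.22 for 0.8 µM (n = 4 each).

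The change of Hamp at 20 µM against vehicle was 1.92 ± 0.25 (SE) at 48 h, a 3.78-fold higher signal that was called, and 0.51 ± 0.25 at 24 h, which was not called. Without the arrays that stood apart the 24 h change was 0.21. The difference between these changes was 1.41 ± 0.35, was called, and was 1.71 without those arrays. At 0.8 µM the changes were 0.17 ± 0.25 at 48 h and 0.16 ± 0.25 at 24 h, neither called. The same vehicle arrays serve both doses.

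In vehicle wells Hamp was 1.49 ± 0.25 lower at 48 h than at 24 h, a 2.81-fold difference that was called, with every 48 h well below every 24 h well. Without the arrays that stood apart it was -1.79. At 0.8 µM the mean was likewise 1.49 lower at 48 h (a log2 difference of -1.49), with no overlap of the wells. Without the arrays that stood apart the 0.8 µM means were 11.87 at 48 h and 13.64 at 24 h. At 20 µM the difference was -0.08, and the wells of the 2 times overlapped. The calls at 48 h, over time in vehicle and for the difference between the times held in all 14 alternative settings and whichever array of the compared groups was left out.

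The summed signal of Kupffer cell and macrophage markers was higher in the groups with high Hamp. Between 20 µM and vehicle at 48 h that difference rested on a single marker, Cd68. Of the 7 markers listed, 5 were tested (Cd68, Cd163, Clec4f, Csf1r and Ptprc). Their summed signal ran from 2966 to 4066 at 20 µM and 48 h, against 2157 to 2713 in vehicle at 48 h. It ran from 3519 to 4094 at 20 µM and 24 h, against 3200 to 4346 in vehicle at 24 h. At 0.8 µM the sum ran from 2107 to 2439 at 48 h and from 2795 to 4119 at 24 h. At 48 h the summed difference lay with Cd68, which encodes a lysosomal glycoprotein and rose by 1.44 (limma, adjusted p = 4.98e-11). Cd163, Clec4f, Csf1r and Ptprc changed by -0.21, -0.22, -0.35 and -0.22 and were not called. At 20 µM and 48 h Cd163 and Ptprc averaged 7.95 and 7.60, under the dim level of 8.09. None of the 5 was at 0, and their part in the Hamp result was not tested.

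Counted over the 7 genes with probe sets of their own, 6 were called at 20 µM and 48 h, 2 higher and 4 lower, where 35.2% of all genes tested were called (20.3% higher and 14.9% lower). At 24 h, 1 of the 7 was called, lower, against 23.8% of all genes (13.4% higher and 10.4% lower). The wells did not overlap for 4 of the 7 at 48 h, against 25.9% of all genes, and for 0 of the 7 at 24 h, against 16.8%. The median change of the 7 was -0.25 at 48 h and -0.05 at 24 h, beside 0.04 and 0.01 over all genes. At 0.8 µM 0 of the 7 was called at either time, where 3.33% of all genes were called at 48 h and 0.826% at 24 h. Over time in vehicle, 2 of the 7 were called, 1 higher and 1 lower, both without overlap, against 13.2% of all genes called (6.48% higher and 6.7% lower) and 8.95% without overlap. The 20 µM effects differed between the times for 1 of the 7, Hamp, against 4.21% of all genes. The genes were chosen with these comparisons known, so nothing is read from the counts.

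**Figure D2:**
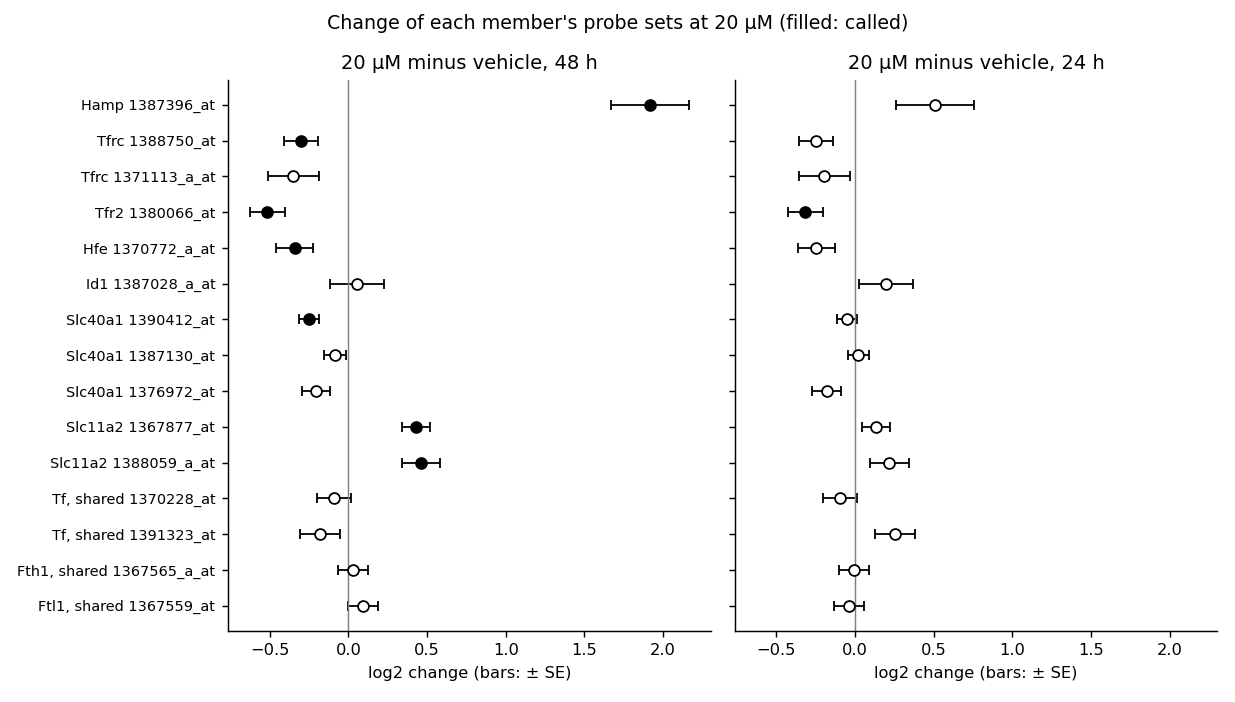
Log2 change of each of the 15 probe sets at 20 µM against vehicle, at 48 h (left) and 24 h (right), with bars of ± 1 SE and filled points for called changes. Hamp at 48 h lies at 1.92, and no other value in either panel is larger in size than 0.52.

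Both sensors of circulating iron were lower at 20 µM and 48 h. Tfr2, at chr12:24744450-24761413, encodes transferrin receptor 2. At 48 h it had 11.84, 11.88, 11.74, 11.66 and 11.68 in 20 µM wells, against 12.47, 12.32, 12.19, 12.31 and 12.08 in vehicle wells. All 20 µM wells lay below all vehicle wells, and the change of -0.52 ± 0.11 (1.43-fold lower) was called and held in all 14 settings and 10 of 10 leave-outs. At 24 h Tfr2 had 12.02, 12.13, 12.37, 11.86 and 12.19 in 20 µM wells, against 12.84, 12.19, 12.20, 12.46 and 12.45 in vehicle wells. These wells overlapped, and the change of -0.32 ± 0.11 was called. The 24 h call for Tfr2 was lost when vehicle replicate 1, 4 or 5 was left out (-0.21, -0.31 and -0.31), when 20 µM replicate 1, 2 or 4 was left out (-0.29, -0.32 and -0.25), and without both arrays that stood apart (-0.31).

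Hfe, at chr17:41841302-41849359, encodes the class I-like protein that associates with transferrin receptors. It had 10.53, 10.01, 10.27, 10.16 and 10.30 in 20 µM wells at 48 h, against 10.62, 10.64, 10.58, 10.72 and 10.42 in vehicle wells. The groups overlapped through 20 µM replicate 1, and the change of -0.34 ± 0.12 was called. The Hfe call was lost without 20 µM replicate 2 or 4 (-0.28 and -0.32) or vehicle replicate 4 (-0.31), and with each array centred on its median (-0.30). At 24 h the Hfe change was -0.25 ± 0.12, and -0.16 without the arrays that stood apart, and was not called.

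Id1, at chr3:161671525-161672691, encodes an inhibitor of helix-loop-helix transcription factors and is a direct BMP target read, in mouse liver, as a partner of Hamp. It ran from 9.90 to 10.58 at 20 µM and 48 h (median 10.33), against 9.94 to 10.81 in vehicle (median 10.22). The change was 0.05 ± 0.17 at 48 h and 0.20 ± 0.17 at 24 h, and neither was called. Id1 thus overlapped between doses on the arrays on which Hamp did not.

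Tfrc, at chr11:81668478-81690318, encodes the transferrin receptor that takes up iron-loaded transferrin. On its brighter probe set it had 14.30, 14.28, 14.39, 14.37 and 14.37 in 20 µM wells at 48 h, against 14.65, 14.58, 14.53, 14.82 and 14.62 in vehicle wells. All 20 µM wells lay below all vehicle wells, and the change of -0.30 ± 0.11 (1.23-fold lower) was called. The other Tfrc probe set also had all 20 µM wells below all vehicle wells, with 12.48 to 12.71 against 12.87 to 13.05, and its change of -0.35 ± 0.16 was not called. The call on the brighter set was lost without 20 µM replicate 1 or 2 (-0.29 and -0.28) or vehicle replicate 4 (-0.26), with each array centred on its median (-0.26), and averaged over both sets (-0.33).

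At 24 h Tfrc on the brighter set had 14.34, 14.12, 14.53, 14.19 and 14.41 in 20 µM wells, against 14.48, 14.39, 14.39, 14.50 and 15.09 in vehicle wells. The change of -0.25 ± 0.11 was not called, was called without 20 µM replicate 3 (-0.30), and was -0.12 without the arrays that stood apart. The value of 15.09 came from vehicle replicate 5, where Hamp was 12.01, and 0.8 µM replicate 1 paired a Tfrc of 14.85 with a Hamp of 12.22.

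**Figure D3:**
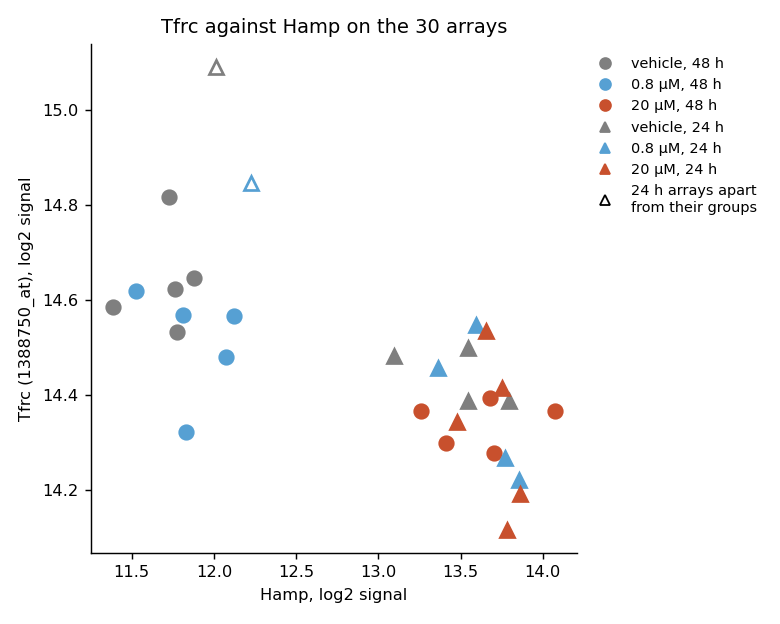
Tfrc log2 signal (brighter probe set, vertical axis) against Hamp log2 signal (horizontal axis) on the 30 arrays, circles for 48 h, triangles for 24 h and open triangles for the 2 arrays that stood apart. Arrays fall in a low-Hamp group, up to 12.22, and a high-Hamp group, from 13.10 up, and the open triangles hold the highest Tfrc values.

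Across the 30 arrays, the correlation of Tfrc with Hamp was -0.665 on the brighter set and -0.744 on the other. Hfe stood at -0.740, Slc40a1 at -0.650 on its brightest set, Tfr2 at -0.273, Slc11a2 at 0.453 on its brighter set and Id1 at 0.0910. These points share arrays, doses and times, and Hamp fell in separate clusters of arrays, so the pooled values mostly describe those clusters. Taken as deviations from the group means, Tfrc correlated with Hamp at -0.754 on the brighter set and -0.863 on the other. Without the arrays that stood apart (28 arrays) the same values were -0.259 and -0.431, so the stronger relation within groups rested on those arrays. For Hfe the value within groups was -0.534, and -0.180 without them. For the brightest Slc40a1 set it was positive, at 0.273, and 0.171 without them.

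Transferrin itself, the plasma carrier of iron (Tf, chr8:112668667-112695376), was measured on probe sets that the annotation shares with Srprb. On the brighter set it ran from 16.38 to 16.84 at 20 µM and 48 h, against 16.43 to 16.86 in vehicle, with a change of -0.09 ± 0.11. On the dimmer set, 11.10 to 11.47 at 20 µM and 48 h stood against 11.22 to 11.67 in vehicle (-0.18 ± 0.13), and 11.54 to 11.83 at 20 µM and 24 h against 11.10 to 11.65 in vehicle (0.25 ± 0.13). The 2 Tf probe sets thus differed in sign at 24 h, where the brighter one changed by -0.10 ± 0.11.

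Ferritin, the iron storage shell, has a heavy chain (Fth1, chr1:216052037-216054325) and a light chain (Ftl1, chr1:105072858-105074705). The Fth1 probe set, which the annotation shares with a pseudogene, changed by 0.03 ± 0.10 at 48 h and -0.01 ± 0.10 at 24 h. The Ftl1 probe set, shared with 4 further symbols, changed by 0.09 ± 0.10 at 48 h and -0.04 ± 0.10 at 24 h. Fth1 ran from 16.13 to 16.71 and Ftl1 from 15.87 to 16.54 over the 30 arrays. None of the 4 shared probe sets was called in any of the 6 comparisons when each of 21226 kept probe sets was tested by itself. In that fit 26.9% of probe sets were called at 20 µM and 48 h, 17.4% at 20 µM and 24 h, 1.81% at 0.8 µM and 48 h, 0.283% at 0.8 µM and 24 h, 8.93% over time in vehicle and 2.72% for the difference of the 20 µM effects. Ferritin is known to be set largely by translation, which arrays do not measure.

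Slc40a1, at chr9:55525457-55633463, encodes ferroportin, the target of hepcidin. On its brightest probe set it had 14.48, 14.35, 14.41, 14.45 and 14.37 in 20 µM wells at 48 h, against 14.63, 14.52, 14.61, 14.74 and 14.81 in vehicle wells. All 20 µM wells lay below all vehicle wells, and the change of -0.25 ± 0.06 (1.19-fold lower) was called. With each array centred on its median the change was -0.21 and was not called. The other Slc40a1 probe sets changed by -0.21 ± 0.09 and -0.09 ± 0.07 with overlapping wells and were not called. At 24 h the changes on the 3 sets were -0.05 ± 0.06, -0.18 ± 0.09 and 0.02 ± 0.07, none called.

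In vehicle wells the brightest Slc40a1 set was 0.30 ± 0.06 higher at 48 h than at 24 h, which was called, and every 48 h well lay above every 24 h well. The vehicle wells at 24 h had 14.10, 14.38, 14.44, 14.46 and 14.42. At 0.8 µM the difference was 0.33, again without overlap, and at 20 µM it was 0.10 with overlapping wells. The other Slc40a1 sets differed over time in vehicle by 0.20 and 0.05, and averaged over the 3 sets the difference of 0.18 was not called.

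Slc11a2, at chr7:133381878-133429921, encodes the divalent metal transporter that moves iron out of endosomes. On its brighter probe set it had 12.11, 12.19, 12.19, 12.12 and 11.81 in 20 µM wells at 48 h, against 11.83, 11.71, 11.42, 11.47 and 11.84 in vehicle wells. Only 20 µM replicate 5 fell within the range of the vehicle wells, and the change of 0.43 ± 0.09 (1.35-fold higher) was called in all 14 settings and 10 of 10 leave-outs. On the other probe set all 20 µM wells lay above all vehicle wells, with 10.40 to 10.93 against 9.94 to 10.27, and the change of 0.46 ± 0.12 was called. At 24 h the changes were 0.13 ± 0.09 and 0.22 ± 0.12, neither called. The 2 Slc11a2 probe sets correlated at 0.196 over the 30 arrays, against 0.836 for the 2 of Tfrc and 0.512 to 0.805 among the 3 of Slc40a1.

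**Figure D4:**
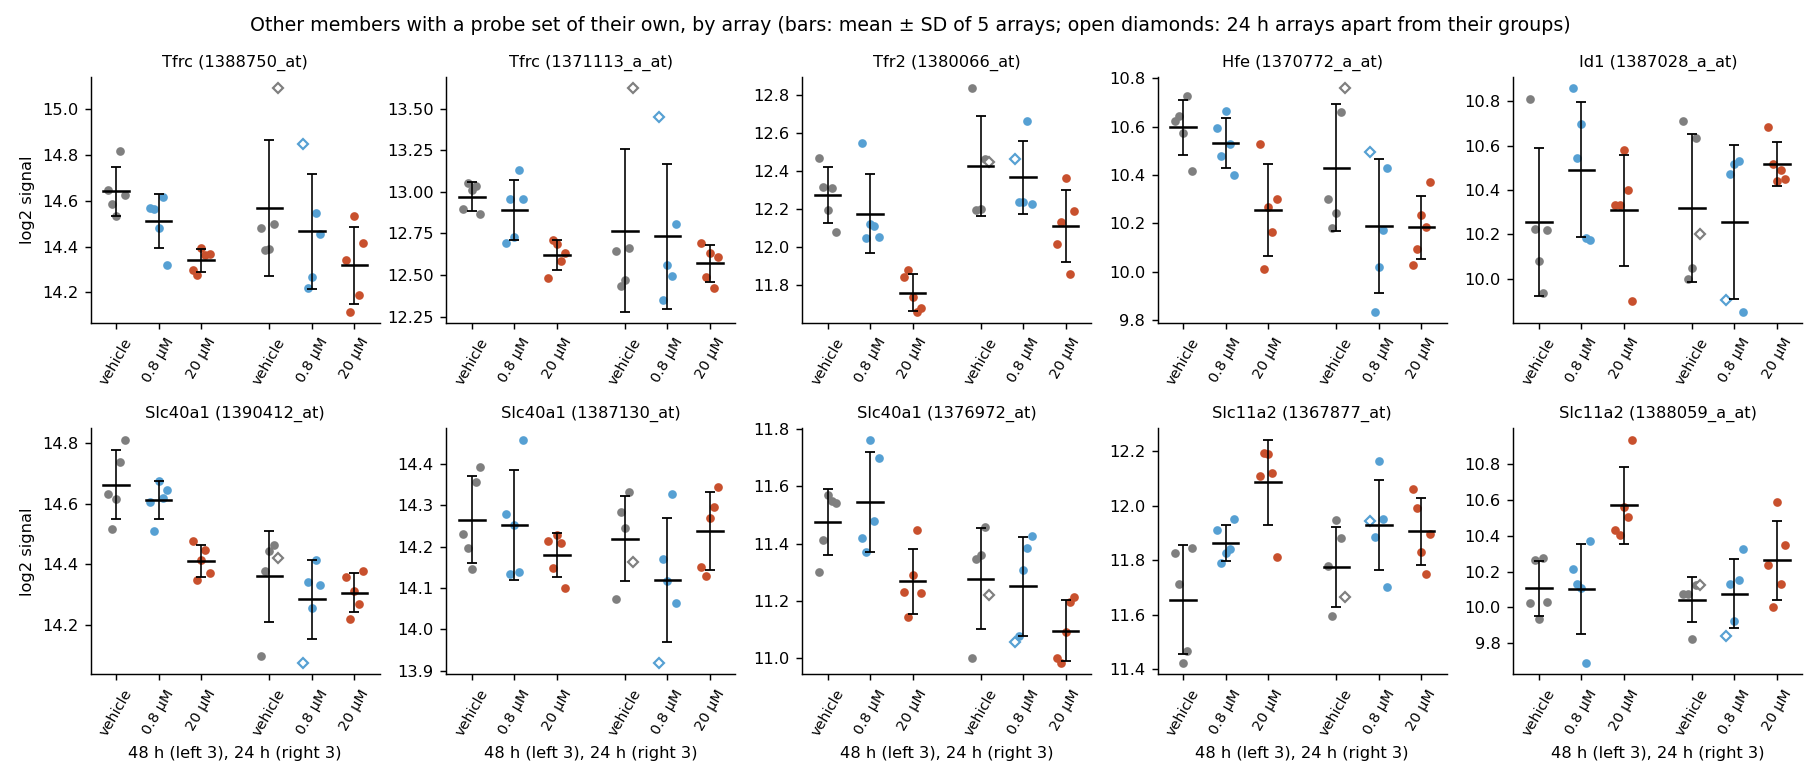
Log2 signal (vertical axes, each with its own range) on the 30 arrays for the 10 probe sets of the other 6 genes that have their own, by dose, with the 48 h groups on the left and the 24 h groups on the right of each panel. Points are wells, bars the mean ± SD of 5 wells, and open diamonds the 2 arrays that stood apart. Both Tfrc sets, Tfr2 and the brightest Slc40a1 set have all 20 µM wells below all vehicle wells at 48 h.

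Of 82 further genes of iron biology listed in 9 groups, 76 had a probe set of their own and 74 were tested. At 20 µM and 48 h, 16 rose and 16 fell (43.2% of the 74), and at 24 h 9 rose and 14 fell (31.1%), where 35.2% and 23.8% of all genes tested were called. The counts of each group below stand beside 20.3% of all genes that rose and 14.9% that fell at 48 h, and 13.4% and 10.4% at 24 h, and nothing particular to a group is read from them. Of the 74 genes, 7 rose and 12 fell at both times. The median change of the 74 was -0.02 at 48 h and -0.03 at 24 h, beside 0.04 and 0.01 over all genes. Without the arrays that stood apart 33 were called at 48 h and 20 at 24 h. Adjusted p-values below are from the limma fit over all genes, with Benjamini-Hochberg adjustment.

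Of the 12 tested genes of BMP and SMAD control, 1 rose and 3 fell at 48 h. Gdf15, which encodes a stress-induced cytokine of the TGF-β family, averaged 9.58 ± 0.20 at 20 µM and 8.61 ± 0.12 in vehicle at 48 h (SD, n = 5 each), a change of 0.97 ± 0.17 with an adjusted p of 3.21e-05. At 24 h Gdf15 rose by 0.48 (adjusted p = 0.04), a call that was lost without 20 µM replicate 1, 4 or 5 or vehicle replicate 4 or 5, with changes of 0.38 to 0.47, and that held in 9 of 14 settings (highest adjusted p = 0.136). Bmpr2, a BMP receptor, fell by 1.59 ± 0.56 at 48 h (adjusted p = 0.0254) on a dim probe set with overlapping wells, and the call was lost without vehicle replicate 3 or 4 or 20 µM replicate 5 (adjusted p = 0.0601, 0.0519 and 0.114). The Bmpr2 call held in 10 of 13 settings (highest adjusted p = 0.0914). Hjv, the BMP co-receptor hemojuvelin, changed by -0.17 ± 0.08 at 48 h (adjusted p = 0.0849) and -0.16 ± 0.08 at 24 h (adjusted p = 0.136). Hjv passed the test at 48 h without vehicle replicate 3 or 20 µM replicate 4 (adjusted p = 0.0283 and 0.0354) and without both arrays that stood apart (adjusted p = 0.0454). Bmp6, the main BMP ligand for hepcidin in mouse liver, changed by -0.57 ± 0.63 at 48 h and by 0.75 ± 0.63 at 24 h, where its vehicle mean was dim, and was not called. Its other probe set changed by -0.12 ± 0.25 at 48 h and fell by 0.76 ± 0.25 at 24 h (adjusted p = 0.0321 over all probe sets), so the sets differed in sign at 24 h.

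Among 8 BMP and SMAD target genes, 1 rose and 3 fell at 48 h, and 3 fell at 24 h. Atoh8, which encodes a helix-loop-helix factor that raises hepcidin in mouse, fell by 0.61 ± 0.11 at 48 h (adjusted p = 5.89e-05) and by 0.47 ± 0.11 at 24 h (adjusted p = 0.00233), with all 20 µM wells below all vehicle wells at both times. Id4, a relative of Id1, fell by 0.73 ± 0.11 at 48 h (adjusted p = 3.74e-06) and by 0.41 ± 0.11 at 24 h (adjusted p = 0.00774). Of the other 3 Id4 probe sets, all of which went down, 1 was called at 48 h and none at 24 h. Smad7, an inhibitor of the pathway, changed by 0.20 ± 0.22 at 48 h and by less than 0.01 in size at 24 h and was not called at either time. Targets that passed the test thus lay on both sides at 48 h.

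Of 7 genes of interleukin-6 and STAT3 control, 1 rose and 3 fell at 48 h. Cebpa, which encodes the liver factor C/EBPα known to drive Hamp in mouse, averaged 11.04 ± 0.17 at 20 µM and 12.17 ± 0.12 in vehicle at 48 h (SD, n = 5 each), a change of -1.13 ± 0.11 (2.19-fold lower, adjusted p = 6.33e-10). At 24 h Cebpa fell by 0.77 ± 0.11 (adjusted p = 2.48e-06), all 20 µM wells lay below all vehicle wells at both times, and its other 4 probe sets fell at both times. Jak2, a kinase of the interleukin-6 receptor, rose by 0.63 ± 0.19 at 48 h (adjusted p = 0.0107) and changed by 0.01 ± 0.19 at 24 h.

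Of 6 genes of iron and oxygen sensing, 2 rose and 1 fell at 48 h, while 1 rose and 2 fell at 24 h. Aco1, which encodes iron regulatory protein 1, averaged 12.11 ± 0.13 at 20 µM and 12.71 ± 0.14 in vehicle at 48 h (SD, n = 5 each), a change of -0.60 ± 0.06 with an adjusted p of 4.46e-09. At 24 h Aco1 fell by 0.50 ± 0.06 (adjusted p = 3.54e-07), and all 20 µM wells lay below all vehicle wells at both times. Ireb2, for iron regulatory protein 2, changed by -0.18 ± 0.15 at 48 h (adjusted p = 0.399) and -0.01 ± 0.15 at 24 h (adjusted p = 0.985).

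Of 12 genes of iron transport and reduction, 4 rose and 1 fell at 48 h. Cp, for the ferroxidase ceruloplasmin, fell by 0.31 ± 0.07 at 48 h (adjusted p = 3.62e-04), with all 20 µM wells below all vehicle wells, and its other 2 probe sets fell by 0.34 and 0.63. At 24 h Cp changed by 0.11 ± 0.07 (adjusted p = 0.277), and the difference between the times was -0.41 ± 0.09 (adjusted p = 0.00707). Slc39a14, an importer of iron that is not bound to transferrin, changed by -0.08 ± 0.06 and -0.06 ± 0.06 at 48 h and 24 h, not called, and was called at 48 h only without 20 µM replicate 1 (-0.13, adjusted p = 0.0403). Its other probe set changed by 0.35 ± 0.17 at 48 h, not called. Steap4, a metalloreductase named after its values had been seen, rose at 48 h by 0.39 at 0.8 µM (adjusted p = 0.00309) and by 0.48 at 20 µM (adjusted p = 7.66e-06).

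Of 3 genes of iron storage and chaperones, 2 rose at 48 h, and 1 rose and 1 fell at 24 h. Ncoa4, the receptor that carries ferritin to lysosomes, fell by 0.23 ± 0.05 at 24 h (adjusted p = 9.22e-04) with overlapping wells, which was not called with arrays centred on their medians (-0.17, adjusted p = 0.0569), and changed by -0.06 ± 0.05 at 48 h (adjusted p = 0.369). The genes that rose at 48 h were Pcbp1 and Pcbp2, for the iron chaperones, at 0.22 (adjusted p = 0.00113) and 0.44 (adjusted p = 4.39e-08), named after their values had been seen.

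Of 7 genes of heme synthesis, none rose and 3 fell at 48 h, and 1 rose and 3 fell at 24 h. Those that fell at 48 h, named after their values had been seen, were Alad, Cpox and Fech, at -0.42, -0.39 and -0.30 (adjusted p = 2.47e-04, 1.13e-09 and 0.00374). They encode an early, a late and the final enzyme of the pathway. Alas1, for the rate-limiting enzyme in liver, rose by 0.36 at 24 h (adjusted p = 0.00326) and was not called at 48 h, where it changed by 0.03. The 24 h call of Alad, a change of -0.24, held in 7 of 14 settings. Without both arrays that stood apart it was lost (-0.23, limma, adjusted p = 0.0849).

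Of 11 genes of heme scavenging, transport and breakdown, 3 rose and none fell at 48 h. Hmox1, for inducible heme oxygenase, rose by 0.38 ± 0.08 at 48 h (adjusted p = 4.33e-04), with all 20 µM wells above all vehicle wells, and changed by 0.17 ± 0.08 at 24 h (adjusted p = 0.142). Slc48a1, for a heme transporter of endosomes, averaged 12.05 ± 0.07 at 20 µM and 11.52 ± 0.12 in vehicle at 48 h (SD, n = 5 each), a rise of 0.53 ± 0.07 (adjusted p = 1.52e-07). At 24 h Slc48a1 changed by 0.18 ± 0.07 (adjusted p = 0.0565), and passed the test when vehicle replicate 1 or 5, 0.8 µM replicate 2 or 5, or 20 µM replicate 4 was left out. The difference of its effects between the times was 0.35 ± 0.10 (adjusted p = 0.0293). That call for Slc48a1 was lost with centred arrays (adjusted p = 0.148) and in 7 leave-outs: vehicle 24 h replicate 1, vehicle 48 h replicates 1 and 2, 20 µM 24 h replicates 1 and 4, and 20 µM 48 h replicates 1 and 5 (adjusted p up to 0.0659). Of 8 genes of iron-sulfur cluster assembly, 2 rose and 2 fell at 48 h, and 2 rose and 1 fell at 24 h.

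**Figure D5:**
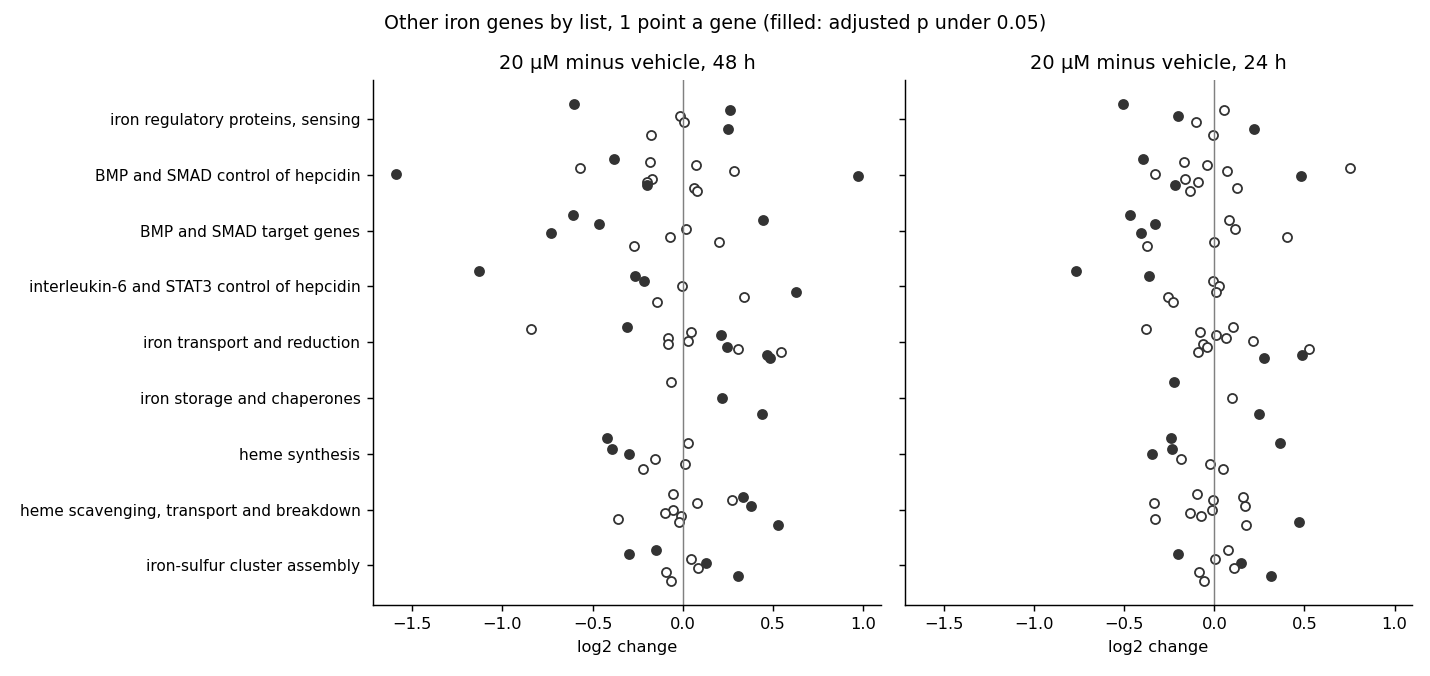
Log2 change at 20 µM against vehicle for the 74 further iron genes tested, 1 point per gene, by group (rows), at 48 h (left) and 24 h (right), with filled points for an adjusted p under 0.05. Filled points lie on both sides of 0 in most rows, and the points farthest from 0 at 48 h are Bmpr2 at -1.59, Cebpa at -1.13 and Gdf15 at 0.97, all filled.

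At 0.8 µM, 2 of the 74 genes rose and 2 fell at 48 h, and 1 rose at 24 h, where 3.33% and 0.826% of all genes tested were called. Cebpa fell by 0.41 at 48 h (adjusted p = 0.0333) and Id4 by 0.40 (adjusted p = 0.0441), and the calls held in 12 and 9 of 14 settings and in 23 and 19 of 30 leave-outs. Those that rose at 48 h, named after their values had been seen, were Steap4 (above) and Hscb, a chaperone of iron-sulfur cluster assembly, at 0.19 (adjusted p = 0.0371), a call that held in 10 of 14 settings and 23 of 30 leave-outs. The Cebpa call was lost without vehicle 48 h replicate 1, 2, 4 or 5 or 0.8 µM 48 h replicate 2, 3 or 5 (adjusted p up to 0.106), and the Hscb call without vehicle replicate 1, 4 or 5 or 0.8 µM replicate 2, 3, 4 or 5 at that time (adjusted p up to 0.104). The Id4 call was lost without vehicle 48 h replicate 1, 2, 3 or 4, 0.8 µM 48 h replicate 1, 2, 3 or 5, 20 µM 48 h replicate 2 or 3, or 20 µM 24 h replicate 4 (adjusted p up to 0.124). With the settings included, the adjusted p of Id4 reached 0.540 and its smallest change was -0.19. The gene that rose at 24 h was Steap4, at 0.37 (adjusted p = 0.0248, and 0.0685 without both arrays that stood apart). Over time in vehicle, 4 of the 74 were higher and 10 lower at 48 h than at 24 h, where 6.48% of all genes were higher and 6.7% lower. Socs3, a STAT3 target named after its values had been seen, was 0.70 lower at 48 h (a change of -0.70, adjusted p = 0.026). The Socs3 call held in 13 of 14 settings and 27 of 30 leave-outs (highest adjusted p = 0.116). Also over time in vehicle, Aco1 was lower by a change of -0.34 (adjusted p = 4.86e-04).

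The genes whose levels followed Hamp most closely over the 30 arrays were Gstk1, Slc6a6, Ube2j1, Cd68 and Akr1b8, with Pearson correlations of 0.953, 0.920, 0.906, 0.904 and 0.901. They encode a glutathione transferase, the taurine transporter, a ubiquitin-conjugating enzyme of the endoplasmic reticulum, the lysosomal glycoprotein above and an aldo-keto reductase. They were chosen by this correlation, so a pattern that they share with Hamp is not a separate result. Their means were lower in vehicle at 48 h than at 24 h, at 13.80 against 14.34 for Gstk1 and 12.18 against 12.94 for Slc6a6. At 20 µM Gstk1 averaged 14.50 at 48 h and 14.43 at 24 h. Within groups the correlations of the 5 with Hamp ran from 0.600 to 0.802 as deviations from group means. The points share arrays, doses, times and the clusters of high and low Hamp, and without the arrays that stood apart (28 arrays) the correlations were 0.956, 0.916, 0.920, 0.914 and 0.895, with Akr1b8 at rank 8 and the others still in the first 4. Within groups they then ran from 0.329 for Slc6a6 to 0.578 for Gstk1.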

How the data were processed

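RNA from 30 wells was hybridised to 30 rat expression arrays. The deposited intensity values are linear MAS5 signals, per the submitters' processing notes, and each array had a trimmed mean of 1499.99 as deposited, so the authors had scaled them to one level. No further normalization was applied. Signals were floored at 16 and log2 transformed (3.86% of values lay below the floor). A probe set was kept if it exceeded the 40th percentile of its own array on at least 5 arrays (21226 kept). Of 31042 probe sets that were not controls, 20826 had 1 gene symbol, 436 several and 9780 none listed. Where several kept probe sets shared a symbol, the one of highest mean stood for the gene, giving 11503 genes. Group means were fitted over all 30 arrays in limma 3.58.1 (R 4.3.3; trended eBayes, Benjamini-Hochberg adjustment over all genes), after a test on simulated data. A gene is called dim where the lower group mean was under 8.09. The 10 genes and all lists were chosen with earlier results of these data known. Named from the lists were genes called at 20 µM with a change of at least 0.5 in size, up to 4 per list, and a few fixed regulators; Tmprss6 was among them and is not analysed here. Likeness was the Pearson correlation with Hamp, for the top 5 genes. Alternatives were other floors, filters, normalizations, spread models, array weights, gene summaries and leaving out each array. Leaving out both arrays that stood apart, and the set of array numbers as a block, were chosen after seeing the data. The number of arrays limits the precision.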

Additional observations from a re-analysis of the deposited data

Results flagged for a closer look

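The 20 µM effect differed between the times for Hamp, by 1.41 (the effect at 48 h minus that at 24 h). It also differed for Cp, by -0.41, and for Slc48a1, by 0.35. Each was taken as a difference in the limma fit. Hamp was chosen after earlier results on these same arrays had been seen, so its value of 1.41 is a description. The Slc48a1 call was lost in 7 of 30 leave-outs and with centred arrays (adjusted p = 0.148).

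Single arrays stood far from the other 4 of their group by Dixon's criterion in 12 of 186 groups of values over 31 probe sets (6.45%), where chance gives about 1 in 20. Vehicle 24 h replicate 5 had Tfrc at 15.09 on the brighter set, against 14.39 to 14.50 on the others, and at 13.62 on the dimmer set, against 12.44 to 12.66. The 0.8 µM 24 h replicate 1, the other array that stood apart, had Hmox1 at 14.72, against 15.08 to 15.18. Slc11a2 was 11.81 on the brighter set in 20 µM 48 h replicate 5, against 12.11 to 12.19, and 9.82 on the other set in vehicle 24 h replicate 3, against 10.07 to 10.12. Tfr2 was 12.55 in 0.8 µM 48 h replicate 1, against 12.05 to 12.12. Slc40a1 was 14.10 in vehicle 24 h replicate 1, against 14.38 to 14.46, and the shared Fth1 probe set was 16.15 in vehicle 48 h replicate 2, against 16.40 to 16.49.

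Among the further iron genes, Id4 was 11.09 in 20 µM 48 h replicate 5, against 11.40 to 11.44, and 12.06 in 0.8 µM 48 h replicate 4, against 11.54 to 11.65. Smad7 was 9.52 in 20 µM 24 h replicate 2, against 8.76 to 8.97. Bmp6 was 5.72 in 0.8 µM 24 h replicate 5, against 8.28 to 9.02.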

How the results depend on the processing

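Array numbers in the titles fall in 5 sets of 6, and nothing in the labels says that a set shares a culture or day. Deviations of same-set arrays from their group means correlated at -0.0864 to 0.172 (median 0.0202). Between arrays of different sets the median was -0.00587. Of the 30 arrays, 13 lay closest to their own set, which is 1 of 5 sets for each array. With the set as a replicate block, an alternative chosen after seeing the data, member calls were 1 at 20 µM and 24 h, 6 at 20 µM and 48 h and 2 over time in vehicle, as without it, and the further iron genes called were 22 and 33. Gdf15 (adjusted p = 0.0552) and Alad (0.0509) at 24 h and Il6st over time in vehicle (0.0505) were then not called, and Slc48a1 at 24 h (0.0334) and Hjv at 48 h (0.0421) were. Of the 7 genes with their own probe sets, the 1 call at 20 µM and 24 h (Tfr2) became 0 with arrays centred on their medians, with no trend, with only the groups compared and without both arrays that stood apart, and ran from 0 to 2 when single arrays were left out. The 6 calls at 20 µM and 48 h became 3 with centred arrays and ran from 4 to 6 with single arrays left out. The 2 calls over time in vehicle became 1 when probe sets were averaged. The 1 call for the difference between the times and the 0 calls at 0.8 µM held in the 14 settings. The further iron genes called numbered 17 to 24 at 24 h and 28 to 34 at 48 h. Over all genes, calls at 0.8 µM ran from 7 to 125 at 24 h (95 as reported; 12 with centred arrays) and from 172 to 533 at 48 h (383 as reported), and centring also lowered those over time in vehicle to 1046 (1516 as reported) and for the difference to 249 (484 as reported; 730 without both arrays that stood apart). Signs turned only for genes that were not called, apart from Il6st over time in vehicle, at -0.109 with averaged probe sets. At 24 h Jak2 was -0.0116 with array number as a covariate and ran from -0.111 to 0.104 with single arrays left out, and Bmp6 was -0.00285 with averaged probe sets. Smad7 at 24 h was 0.0579 centred, 0.0535 with quantile normalization, 0.00305 with array weights, 0.0793 without both arrays, and -0.137 to 0.0793 with single arrays left out, while at 48 h it ran from -0.0387 (without vehicle replicate 3) to 0.369. Ireb2 at 24 h was 0.0524 centred, 0.0236 with weights, 0.0510 without both arrays and -0.0996 to 0.0529 with single arrays left out. Slc39a14 at 48 h was 0.133 with averaged probe sets. The cause was not tested.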

Other observations

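The genes running most opposite to Hamp over the 30 arrays were Akr1c19, Vnn1, Acsm2, Selenbp1 and Nit2, with correlations of -0.972, -0.953, -0.947, -0.940 and -0.938, chosen after their values had been seen. Akr1c19 averaged 12.13 at 20 µM and 13.60 in vehicle at 48 h, and 11.91 at 20 µM and 12.43 in vehicle at 24 h. Vnn1, which encodes the pantetheinase vanin, averaged 10.89 at 20 µM and 12.60 in vehicle at 48 h. The points share arrays, doses, times and the clusters of high and low Hamp. Without the arrays that stood apart (28 arrays) the same 5 ranked lowest, from -0.972 to -0.935, while their correlations within groups ran from -0.608 to -0.410, against -0.898 to -0.783 with them.

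Tat, a hepatocyte enzyme of tyrosine breakdown, fell by 0.43 at 20 µM and 48 h (limma, adjusted p = 1.71e-05) while Alb and Hnf4a were not called. Krt19, a bile duct marker on a dim probe set, fell by 1.28 at 20 µM and 24 h (limma, adjusted p = 0.00683). At 48 h it changed by -0.29 (adjusted p = 0.583). Epcam, the other bile duct marker tested, changed by 0.08 at 24 h (adjusted p = 0.343) and by 0.04 at 48 h (adjusted p = 0.659).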
